A study of Mus musculus with 6 samples.

Results

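The 7 mouse Schlafen genes Slfn1, Slfn2, Slfn3, Slfn4, Slfn5, Slfn8 and Slfn9 were followed in cerebral cortex 24 h after traumatic brain injury (TBI). They are 7 of 56826 gene rows in the deposited table, taken by exact symbol, and all 7 passed the filter on low counts. They had been picked for their counts and RPKM values (read counts scaled by row length and library total) in these same libraries, so their differences between groups are given as a description. How many of them passed the call rule is printed beside the share of all rows, and nothing is read from it. The injured samples were 3 RNA-seq libraries of cortex around the injury site of wild type C57BL/6 mice at 24 h after TBI (TBI replicates 1 to 3). The others were 3 libraries of normal cortex from wild type C57BL/6 mice (control replicates 1 to 3). No sham operation, injury device, age or sex is given in the sources used here, nor whether each library came from 1 animal, so p-values measure only the spread between these libraries.

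Schlafen proteins share a core region named after the family, and several members bind or cut transfer RNA. The family was first described in mouse T cells, where its short members restrain growth, and many members are induced by interferon in leukocytes. Mouse members fall into a short group (Slfn1, Slfn2), an intermediate group (Slfn3, Slfn4) and a long group with a helicase-like region (Slfn5, Slfn8, Slfn9). In the GENCODE M21 transcripts that match the deposited accessions, the coding sequences of these groups had 337 and 378 codons (Slfn1, Slfn2), 517 and 602 codons (Slfn3, Slfn4), and 884, 910 and 910 codons (Slfn5, Slfn8, Slfn9).

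The 7 genes lie side by side on chromosome 11 within 264 kb (mm10, chr11:82951143-83215568). In order along the chromosome, the deposited rows are Slfn5 (82951143 to 82964850, plus strand), Slfn9 (82977918 to 82992239, minus), Slfn8 (83002158 to 83020810, minus), Slfn2 (83065112 to 83070678, plus), Slfn1 (83116845 to 83122659, plus), Slfn4 (83175174 to 83190216, plus) and Slfn3 (83191330 to 83215568, plus). Copies within the cluster are close. Aligned coding sequences of Slfn3 and Slfn4 were 95.3% identical and those of Slfn8 and Slfn9 were 92.7% identical, against 71.0% for Slfn1 and Slfn2. Of all 50-base windows of the Slfn3 transcript, 14.3% occur unchanged in the Slfn4 transcript, and 8.37% of Slfn4 windows occur in another Schlafen transcript. For Slfn8, 14.6% of windows occur in another Schlafen transcript, and for Slfn9 11.2%. The Slfn9 transcript used has 5769 bases, while counts and RPKM of the deposited Slfn9 row imply a length of 3856 bases. The share for the Slfn9 row as counted may therefore differ. How the authors placed reads that match 2 copies is not given in the sources used here, so the values of Slfn3, Slfn4, Slfn8 and Slfn9 are uncertain by what their neighbours may lend them.

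The promoters of 5 members are shown, as windows with an ETS factor core (Slfn1, Slfn2, Slfn4) or an interferon-stimulated response element core (Slfn8, Slfn9). Each is the RefSeq window of GRCm38.p6 from 250 bases before to 50 bases after the annotated start, 5′ to 3′ on the gene's strand. Windows were found for all 7 members. Capitals mark matches to motifs searched on both strands: an interferon-stimulated response element core (GAAA, any 2 bases, GAAA), an ETS factor core (CAGGAAGT), an AP-1 site (TGANTCA) and a TATA box (TATAAA). Matches to different motifs did not overlap in these windows. RefSeq starts can differ from those of the deposited rows, as they do for Slfn1, Slfn4, Slfn5 and Slfn9.
Slfn1, chr11:83116570-83116869, plus strand: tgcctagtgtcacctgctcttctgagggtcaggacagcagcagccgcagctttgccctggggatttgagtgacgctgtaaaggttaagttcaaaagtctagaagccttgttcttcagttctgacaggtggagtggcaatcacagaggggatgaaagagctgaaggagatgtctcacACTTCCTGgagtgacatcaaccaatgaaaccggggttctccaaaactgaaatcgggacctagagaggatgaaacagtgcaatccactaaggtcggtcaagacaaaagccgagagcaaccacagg
Slfn2, chr11:83064862-83065161, plus strand: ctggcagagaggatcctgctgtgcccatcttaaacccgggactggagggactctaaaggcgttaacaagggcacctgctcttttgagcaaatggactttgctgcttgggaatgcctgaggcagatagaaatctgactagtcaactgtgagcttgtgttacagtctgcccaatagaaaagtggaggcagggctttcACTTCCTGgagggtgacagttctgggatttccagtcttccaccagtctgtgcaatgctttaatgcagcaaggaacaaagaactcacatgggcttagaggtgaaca
Slfn4, chr11:83174936-83175235, plus strand: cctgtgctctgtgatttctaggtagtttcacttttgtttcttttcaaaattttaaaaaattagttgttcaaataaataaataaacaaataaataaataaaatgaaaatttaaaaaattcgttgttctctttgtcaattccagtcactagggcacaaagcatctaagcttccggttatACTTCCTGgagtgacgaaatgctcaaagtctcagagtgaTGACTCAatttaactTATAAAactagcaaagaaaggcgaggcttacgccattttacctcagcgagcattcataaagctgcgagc
Slfn8, chr11:83020761-83021060, minus strand: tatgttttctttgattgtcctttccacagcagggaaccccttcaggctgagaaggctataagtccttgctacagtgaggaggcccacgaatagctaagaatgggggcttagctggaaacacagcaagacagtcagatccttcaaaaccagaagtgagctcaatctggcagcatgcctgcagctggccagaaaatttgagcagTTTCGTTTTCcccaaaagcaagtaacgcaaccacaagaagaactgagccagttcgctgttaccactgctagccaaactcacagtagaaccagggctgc
Slfn9, chr11:82991781-82992080, minus strand: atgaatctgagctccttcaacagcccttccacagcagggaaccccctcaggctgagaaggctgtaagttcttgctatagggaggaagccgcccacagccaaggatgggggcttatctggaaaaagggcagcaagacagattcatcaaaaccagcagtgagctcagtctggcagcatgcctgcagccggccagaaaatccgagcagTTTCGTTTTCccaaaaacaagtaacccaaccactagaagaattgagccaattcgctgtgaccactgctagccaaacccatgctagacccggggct

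The ETS core, bound by transcription factors of that family in blood cells among others, was found in the windows of Slfn1, Slfn2, Slfn3 and Slfn4 and in 3.34% of all 32544 promoter windows. It was added to the search after these sequences had been read. In Slfn1, Slfn2 and Slfn4 it is read on the strand opposite to the gene, with its first base at -74, -55 and -73 from the start site. The interferon-stimulated response element core was found in the windows of Slfn5, Slfn8 and Slfn9 and in 3.45% of all windows. In Slfn5, whose window is not shown, the match is GAAAAAGAAA with its first base at -155, and a run of A follows it. The matches in Slfn8 and Slfn9 have other letters, TTTCGTTTTC in both. Their first base is at -48 in the Slfn8 window shown and at -45 in Slfn9. RefSeq holds a second Slfn8 start, from which the same match begins at -136. The Slfn4 window alone among the 7 also held a TATA box and an AP-1 site, which occur in 13.6% and 7.79% of all windows. A gamma-interferon activated site (TTCNNNGAA), an NF-kB site (GGGA, any 2 bases, TTCC) and a PU.1 site (GAGGAAGT, which differs from the ETS core in its first letter) were not found in any of the 7 windows and occur in 8.33%, 1.47% and 3.11% of all windows. These are letter matches and were not measured as binding sites.

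Total counts per library were 68808787 to 72169720 in TBI and 67252519 to 83929814 in control. Rows overlap, so a read can count more than once in these totals. Cortical markers matched the labelled tissue, with a summed level of 295 to 346 RPKM in TBI and 353 to 424 RPKM in control over 10 genes of excitatory neurons, of which 0 were higher and 5 lower by edgeR (adjusted p under 0.05), beside 15.4% higher and 10.7% lower of all RefSeq-named rows tested (3 lower without control replicate 1 or TBI replicate 2). Among them Tbr1, a transcription factor of deep-layer cortical neurons, was at 5.15 ± 0.655 RPKM in TBI and 9.42 ± 0.861 RPKM in control (SD, n = 3 each). It fell by 0.95 on the log2 scale (SE 0.11, edgeR adjusted p = 6.77e-05). Gfap, the astrocyte filament gene that rises in injured brain, was at 197 ± 21.6 RPKM in TBI and 21.2 ± 3.45 RPKM in control. Of 10 astrocyte genes 4 were higher and 2 lower, beside the same 15.4% higher and 10.7% lower of RefSeq-named rows (4 lower without control replicate 2).

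The short and intermediate genes Slfn1, Slfn2 and Slfn4 stood furthest above control. Slfn4, which marks myeloid cells in the infected mouse stomach, had 1973, 562 and 3315 counts in TBI replicates 1, 2 and 3, against 8, 12 and 4 counts in control replicates 1, 2 and 3. On the RPKM scale this was 7, 1.97 and 12.2 in TBI against 0.0301, 0.0409 and 0.0120 in control. The lowest TBI library was far above the highest control library, and TBI replicate 3 stood 6.19-fold above TBI replicate 2. The fitted log2 fold change, TBI over control, was 7.93 (SE 0.72), a 243-fold difference, and without TBI replicate 3 it was 7.27, a 154-fold difference. In bulk tissue, more cells of a type and more RNA per cell cannot be told apart.

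Slfn1, whose product slows T cell growth when overexpressed in mice, had 184, 149 and 313 counts in TBI replicates 1, 2 and 3, against 2, 8 and 2 counts in control replicates 1, 2 and 3. This corresponds to 1.39, 1.11 and 2.45 RPKM in TBI against 0.0160, 0.0581 and 0.0128 RPKM in control. The groups did not overlap. The log2 fold change was 5.72 (SE 0.46), a 52.8-fold difference that rests on 12 control counts in all. Without control replicate 2, which held 8 of them, it was 6.67, a 102-fold difference.

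Slfn2, which in mice keeps T cells and monocytes in a resting state and shields transfer RNA from cleavage, was already present in control. It had 6.08, 3.96 and 8.84 RPKM in TBI replicates 1, 2 and 3, against 0.983, 0.762 and 0.752 RPKM in control replicates 1, 2 and 3. Every TBI library was above every control library, and the fitted difference was 2.84 on the log2 scale (SE 0.26), or 7.16-fold. On the opposite strand over Slfn2, 1 cDNA clone row had 13, 6 and 25 counts in TBI and 2, 14 and 3 counts in control. A second clone row there had 17, 10 and 18 counts in TBI and 5, 2 and 3 counts in control. Slfn2 itself had 476 to 1012 counts in TBI and 94 to 110 counts in control. The strand setting of the counting is not known here, so reads of a gene and of an opposite-strand row cannot be told apart.

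**Figure D1:**
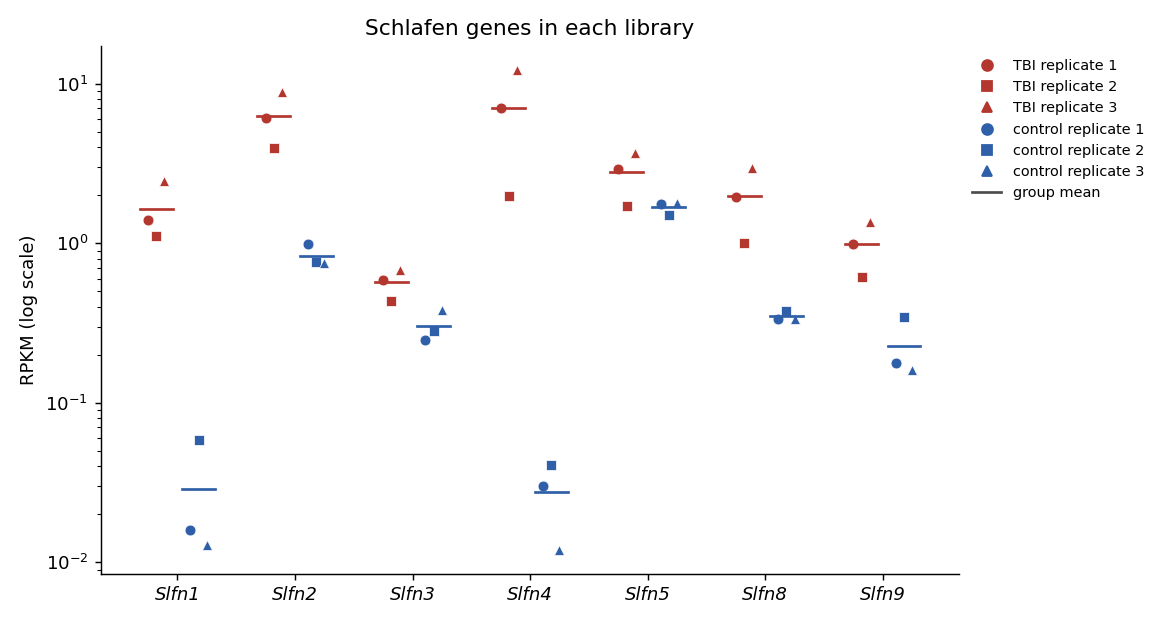
RPKM of the 7 Schlafen genes on a log axis, 1 point per library (circle, square and triangle for replicates 1, 2 and 3), TBI in red to the left of control in blue, with a bar at the group mean. Slfn1 and Slfn4 lie below 0.06 RPKM in every control library and above 1 RPKM in every TBI library, while the groups of Slfn5 overlap.

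Slfn3 is the close relative of Slfn4 at the end of the cluster and had far lower levels in injured tissue. It had 0.588, 0.435 and 0.680 RPKM in TBI replicates 1, 2 and 3, against 0.246, 0.282 and 0.381 RPKM in control replicates 1, 2 and 3. The groups did not overlap, but the gap between TBI replicate 2 and control replicate 3 was small, at a fitted log2 fold change of 0.81 (SE 0.26). In control, Slfn3 was above Slfn4 in all 3 libraries (0.303 ± 0.0697 RPKM for Slfn3 and 0.0277 ± 0.0146 RPKM for Slfn4, SD, n = 3), and in TBI it was below Slfn4 in all 3 (0.568 ± 0.124 RPKM for Slfn3 and 7.05 ± 5.10 RPKM for Slfn4).

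Of the long genes, Slfn8 and Slfn9 were above control in every TBI library and Slfn5 was not. Slfn8, linked to inflammation of the nervous system in a mouse model of autoimmune encephalomyelitis, had 1.95, 1.01 and 2.96 RPKM in TBI replicates 1, 2 and 3. Its control replicates 1, 2 and 3 had 0.337, 0.377 and 0.336 RPKM. The log2 fold change was 2.42 (SE 0.30), and the control libraries lay within 1.12-fold of each other. Slfn9 had 0.983, 0.614 and 1.35 RPKM in TBI replicates 1, 2 and 3, against 0.177, 0.346 and 0.161 RPKM in control replicates 1, 2 and 3. Control replicate 2 stood above the other controls, by up to 2.16-fold, and was still below the lowest TBI library. The log2 fold change of Slfn9 was 2.03 (SE 0.31). Slfn8 has 2 deposited transcript rows. The shorter held 82.3, 83.6 and 82.3% of the gene count in TBI replicates 1, 2 and 3, against 82.4, 81.2 and 80.5% in control replicates 1, 2 and 3, and the longer held 100% in each library. Most reads are therefore counted in both rows, and these shares say little about which transcript was used. The other 6 genes have 1 transcript row each.

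Slfn5, whose human counterpart responds to interferon, was the most abundant member in control cortex. It had 2.94, 1.72 and 3.67 RPKM in TBI replicates 1, 2 and 3, against 1.76, 1.5 and 1.78 RPKM in control replicates 1, 2 and 3. TBI replicate 2 fell inside the control range and the other TBI libraries were above it. The log2 fold change was 0.64 (SE 0.21). A noncoding row antisense to Slfn5, 1700003F17Rik (Slfn5os in RefSeq), had 30, 14 and 22 counts in TBI and 12, 16 and 16 counts in control (edgeR adjusted p = 0.371).

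With edgeR, 5 of the 7 genes passed an adjusted p of 0.05 as higher in TBI and 0 as lower, beside 9.12% higher and 8.36% lower of all 42762 rows tested and 15.4% higher of the 16941 RefSeq-named rows tested. The 5 were Slfn1, Slfn2, Slfn4, Slfn8 and Slfn9. Slfn3 also passed without control replicate 3 and without TBI replicate 2, and Slfn5 without TBI replicate 2, which brought the count to 7. In 6 of the 7 genes every TBI library was above every control library, beside 23.2% of all rows tested. The median log2 fold change was 2.42 over the 7 genes and 0.01 over all rows tested. Since the genes were picked on this contrast, nothing is read from these counts. Slfn1 and Slfn4 passed the low-count filter through their TBI libraries alone.

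The order of the members by level differed between injured and normal cortex. In TBI the mean levels ran Slfn4 (7.05 RPKM), Slfn2 (6.29), Slfn5 (2.78), Slfn8 (1.98), Slfn1 (1.65), Slfn9 (0.981) and Slfn3 (0.568). Of these neighbours, only Slfn2 and Slfn5 were separated without overlap between libraries. Compared within each library, Slfn4 was above Slfn2 and Slfn8 above Slfn1 in 2 of 3 libraries. Every other gene of this order was above the next in 3 of 3. In control they ran Slfn5 (1.68 RPKM), Slfn2 (0.832), Slfn8 (0.350), Slfn3 (0.303), Slfn9 (0.228), Slfn1 (0.0290) and Slfn4 (0.0277), with no overlap between Slfn5 and Slfn2, Slfn2 and Slfn8, or Slfn9 and Slfn1.

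The summed level of the 7 genes was 20.9, 10.8 and 32.1 RPKM in TBI replicates 1, 2 and 3, against 3.54, 3.37 and 3.43 RPKM in control replicates 1, 2 and 3. Slfn4 made up 33.4, 18.2 and 37.9% of that sum in TBI and 0.848, 1.21 and 0.351% in control. Slfn5 made up 14.1, 15.9 and 11.4% in TBI and 49.5, 44.6 and 51.8% in control. The share of Slfn8 stayed at 9.22 to 9.35% in TBI and 9.52 to 11.2% in control.

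**Figure D2:**
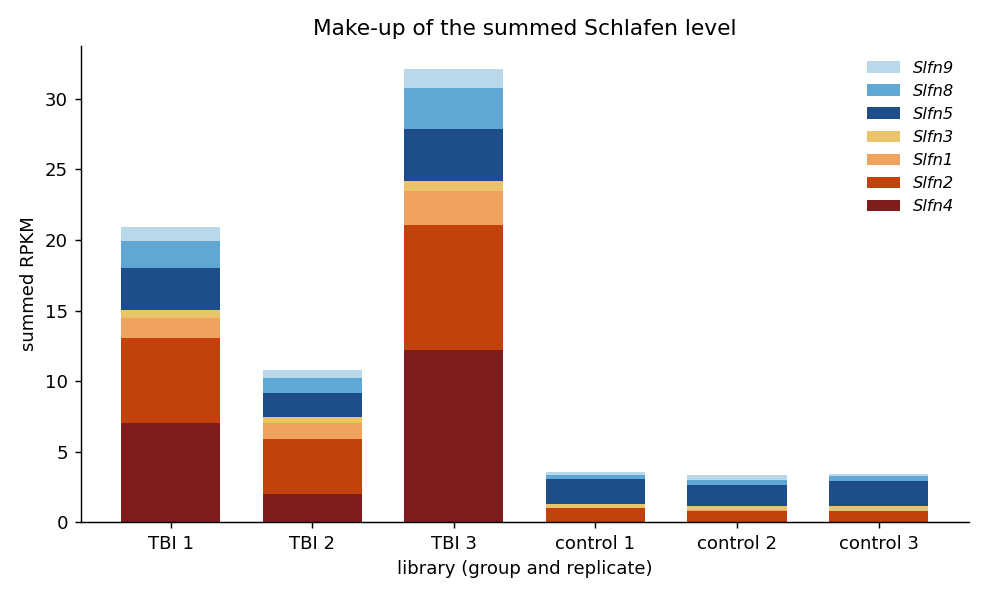
Stacked bars of RPKM of the 7 Schlafen genes in each library, TBI replicates 1 to 3 and then control replicates 1 to 3. Slfn4 and Slfn2 together form most of the bar in each TBI library, and Slfn5 is the largest block in each control library.

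The 3 TBI libraries stood in 1 order in every member. By CPM (counts scaled to 1 normalised library size), all 7 genes were highest in TBI replicate 3 and lowest in TBI replicate 2. That order, noted after the values were seen, held for 19.9% of all rows tested and for 38.3% of the 3900 rows called higher. TBI replicate 3 over replicate 2 gave an RPKM ratio of 6.19 for Slfn4, 2.92 for Slfn8, 2.23 for Slfn2, 2.20 for Slfn1, 2.19 for Slfn9, 2.13 for Slfn5 and 1.56 for Slfn3. Among rows called higher the median CPM ratio of these libraries was 1.12 and the 90th percentile 1.82. The ratio of Slfn4 to Slfn2 in RPKM was 1.15, 0.496 and 1.38 in TBI replicates 1, 2 and 3, against 0.0306, 0.0537 and 0.0160 in control replicates 1, 2 and 3.

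Several other lists stood in the same order over the TBI libraries, and their part in the Schlafen values was not tested. Over 11 neutrophil markers the summed level was 51.0, 37.3 and 109 RPKM in TBI replicates 1, 2 and 3, against 1.53 to 3.66 RPKM in control. Most of it in TBI came from S100a8 (19.7, 14.8 and 38.4 RPKM) and S100a9 (24.4, 17.5 and 58.2 RPKM). By CPM, 6 of the 8 tested were highest in TBI replicate 3 and lowest in TBI replicate 2, beside 19.9% of all rows tested. Ltf and Ngp were lowest in TBI replicate 3. Over 11 markers of monocytes and macrophages the summed level was 61.0, 51.7 and 83.3 RPKM in TBI, against 5.10 to 6.79 RPKM in control. Over 26 interferon-induced genes it was 152, 97.8 and 245 RPKM in TBI, against 37.3 to 42.2 RPKM in control. Each of these sums was highest in TBI replicate 3 and lowest in TBI replicate 2. The same order held for 16 interferon receptor and signalling genes, at 128, 115 and 136 RPKM in TBI and 87.5 to 92.9 RPKM in control. It also held for 9 markers of B and natural killer cells, at 0.591, 0.353 and 0.906 RPKM in TBI and 0.326 to 0.374 RPKM in control. These sums rest on few counts, as 1 of the 9 genes passed the filter. Nkg7, for example, had 2, 1 and 17 counts in TBI replicates 1, 2 and 3. The sum over 10 genes of homeostatic microglia stayed at 101 to 105 RPKM in TBI and 96.2 to 101 RPKM in control, and that over 10 endothelial genes at 91.4 to 92.1 RPKM in TBI and 66.2 to 75.9 RPKM in control. Over 10 genes of excitatory neurons the sum was 346, 295 and 339 RPKM in TBI replicates 1, 2 and 3, so it too was lowest in replicate 2. By CPM, 6 of these 10 genes were highest in TBI replicate 3 and lowest in TBI replicate 2, beside 19.9% of all rows tested.

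**Figure D3:**
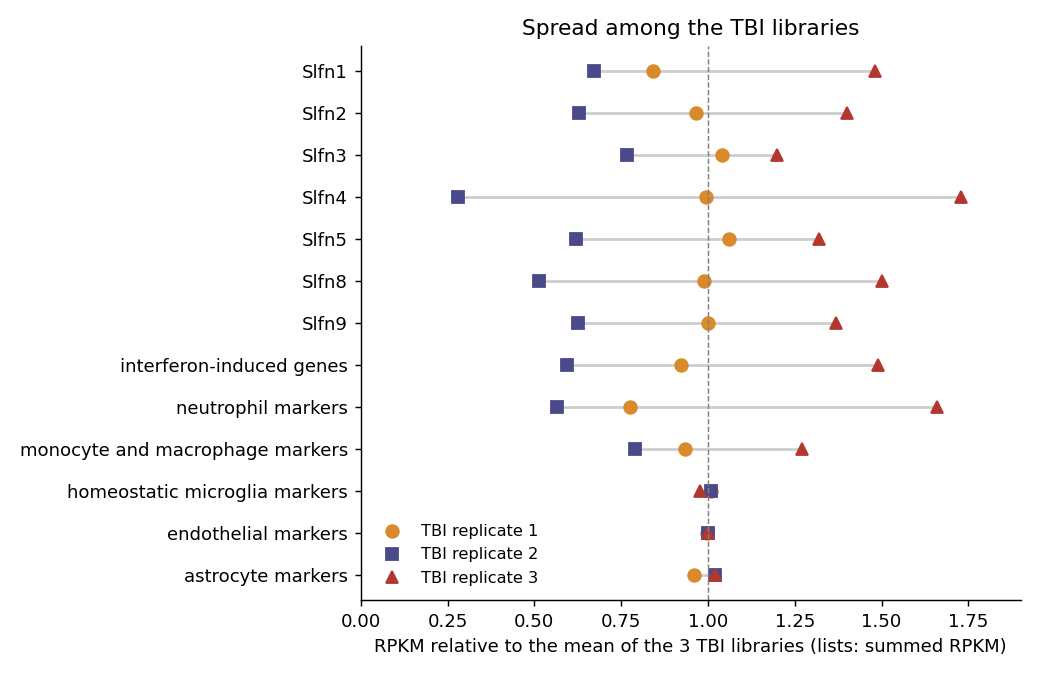
Level in each TBI library divided by the mean of the 3 TBI libraries, for the 7 Schlafen genes (RPKM) and 6 gene lists (summed RPKM), with replicates 1, 2 and 3 as circle, square and triangle. TBI replicate 3 is highest and replicate 2 lowest in all 7 genes and in the interferon-induced, neutrophil and monocyte lists, while the microglia, endothelial and astrocyte lists stay close to 1.

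Of the interferon-induced genes, a class that includes several Schlafen genes, 25 of 26 were higher in TBI and 0 lower (edgeR adjusted p under 0.05). Of all RefSeq-named rows tested, 15.4% were higher and 10.7% lower. The median log2 fold change of the list was 1.92 beside 0.01 over all rows tested. Over the alternative settings, DESeq2 and limma-voom among them, 20 to 25 were called higher and 0 lower. At an unadjusted edgeR p under 0.05 there were 25 higher and 0 lower, and the share of all rows at that threshold was not computed. All 26 were highest in TBI replicate 3 and lowest in TBI replicate 2, as the Schlafen genes were. Cxcl10, a chemokine for T cells, had 5.31, 2.91 and 32.1 RPKM in TBI replicates 1, 2 and 3 and 0.0406 to 0.0975 RPKM in control (log2 fold change 7.59, SE 1.05, edgeR adjusted p = 0.000343). With limma-voom it was not called (adjusted p = 0.0966, range over the settings 3.65e-13 to 0.0966). Zbp1, a sensor of Z-form nucleic acid, was at 1.02 ± 0.539 RPKM in TBI and 0.0739 ± 0.0280 RPKM in control (SD, n = 3 each; log2 fold change 3.69, edgeR adjusted p = 0.0001). Gbp2, a guanylate-binding protein, was at 11.3 ± 5.36 RPKM in TBI and 1.11 ± 0.243 RPKM in control (log2 fold change 3.26, edgeR adjusted p = 1.13e-05). Cmpk2, a mitochondrial nucleotide kinase, was the gene not called, at 7.16 to 9.52 RPKM in TBI and 6.96 to 8.39 RPKM in control.

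Interferon genes themselves were at or near 0 counts. None of the 10 genes listed passed the filter, and none had more than 7 counts in any library. Ifnb1 and Ifna4 had 0 counts in all 6 libraries, where a count of 0 allows up to 3 counts in a library, for counting error only. Ifng had 2, 0 and 0 counts in TBI and 0 in every control library. Of 16 interferon receptor and signalling genes, 9 were higher and 0 lower, beside 15.4% higher and 10.7% lower of RefSeq-named rows, with a median log2 fold change of 0.58. The receptor chain Ifnar2 was at 5.52 ± 0.385 RPKM in TBI and 3.21 ± 0.184 RPKM in control (edgeR adjusted p = 0.000308). Its partner Ifnar1 was at 7.62 ± 0.393 RPKM in TBI and 6.80 ± 0.509 RPKM in control (edgeR adjusted p = 0.574). Irf7, a transcription factor of the interferon response, had 4.54, 1.40 and 5.97 RPKM in TBI replicates 1, 2 and 3, against 1.07, 0.994 and 0.827 RPKM in control (log2 fold change 1.96, edgeR adjusted p = 0.00356). Irf9 and Irf5 rose by 1.81 and 1.42 on the log2 scale (edgeR adjusted p = 7.09e-06 and 8.12e-06).

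T cell markers were read because Slfn1 and Slfn2 are known from T cells. The chains of the T cell receptor complex Cd3d, Cd3e and Cd3g had 1 to 9 counts in TBI and 0 to 5 in control. Other genes of the list were present in both groups. Thy1, which neurons also express, had 154, 143 and 139 RPKM in TBI replicates 1, 2 and 3, against 153, 139 and 140 RPKM in control. Cd4 had 202 to 402 counts in TBI and 84 to 330 in control, and Cd247 had 366 to 413 counts in TBI and 331 to 467 in control. Without Thy1 the summed level of the other 9 markers was 3.12 to 3.73 RPKM in TBI and 1.96 to 3.21 RPKM in control. Of 6 T cell markers tested, 1 was higher and 0 lower by edgeR, beside 15.4% higher and 10.7% lower of RefSeq-named rows. At an unadjusted edgeR p under 0.05 there were 2 higher and 0 lower, and the share of all rows at that threshold was not computed. Without control replicate 2 the number called higher was 2. Of 9 markers of B and natural killer cells only Cd79b passed the filter (edgeR adjusted p = 0.0797), with 14 to 18 counts in TBI and 4 to 10 in control.

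Markers of myeloid cells were higher in TBI. Of 8 neutrophil markers tested 6 were higher and 0 lower, beside 15.4% higher and 10.7% lower of RefSeq-named rows, with a median log2 fold change of 4.10. S100a9, a calcium-binding protein of neutrophils and monocytes, had 24.4, 17.5 and 58.2 RPKM in TBI replicates 1, 2 and 3 and 0.359 to 1.17 RPKM in control (edgeR adjusted p = 1.5e-05). Mmp8 and Cxcr2, a neutrophil collagenase and a chemokine receptor, had log2 fold changes of 5.81 and 5.06 (edgeR adjusted p = 9.77e-05 and 1.12e-06). The granule genes Ltf and Ngp were not called, with 3 to 18 counts of Ltf in TBI and 6 to 21 in control. All 11 tested markers of monocytes and macrophages were higher, with a median log2 fold change of 4.12. Ly6c2, a marker of inflammatory monocytes, had 75, 19 and 102 counts in TBI and 0, 0 and 4 in control (edgeR adjusted p = 0.000785). Msr1 and Arg1 were at 8.01 ± 2.16 and 11.4 ± 0.296 RPKM in TBI and 0.0644 ± 0.0148 and 0.137 ± 0.0630 RPKM in control. Unlike Slfn4 and Ly6c2, Arg1 was nearly level over the TBI libraries, at 11.8, 11.3 and 11.2 RPKM.

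Among 10 genes of resting microglia, 4 were higher and 4 lower, beside 15.4% higher and 10.7% lower of RefSeq-named rows. P2ry12, a purine receptor of resting microglia, fell by 1.87 on the log2 scale (edgeR adjusted p = 6.04e-08). Fcrls, an Fc receptor-like gene of microglia, was at 10.4 ± 0.721 RPKM in TBI and 4.93 ± 0.327 RPKM in control (edgeR adjusted p = 2.12e-05). Of 10 endothelial genes 4 were higher and 1 lower, the second count being near the 10.7% of named rows, led by the junction gene Cdh5 at a log2 fold change of 1.14 (edgeR adjusted p = 2.56e-05). Among 6 genes of transfer RNA cleavage and protection, the process Slfn2 acts on, Rnh1 alone was called, a count near the 15.4% called higher of named rows. At an unadjusted edgeR p under 0.05 there were 4 higher and 0 lower. The share of all rows at that threshold was not computed, so nothing is read from these 2 counts. Rnh1, the inhibitor of angiogenin, was at 11.8 ± 0.939 RPKM in TBI and 5.72 ± 0.533 RPKM in control (edgeR adjusted p = 4.25e-05). The nuclease Ang was at 1.33 ± 0.216 RPKM in TBI and 1.02 ± 0.0614 RPKM in control (edgeR adjusted p = 0.331). Nsun2, Trdmt1 and Elac2 had adjusted p-values of 0.1, 0.0774 and 0.77 in the same edgeR fit.

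**Figure D4:**
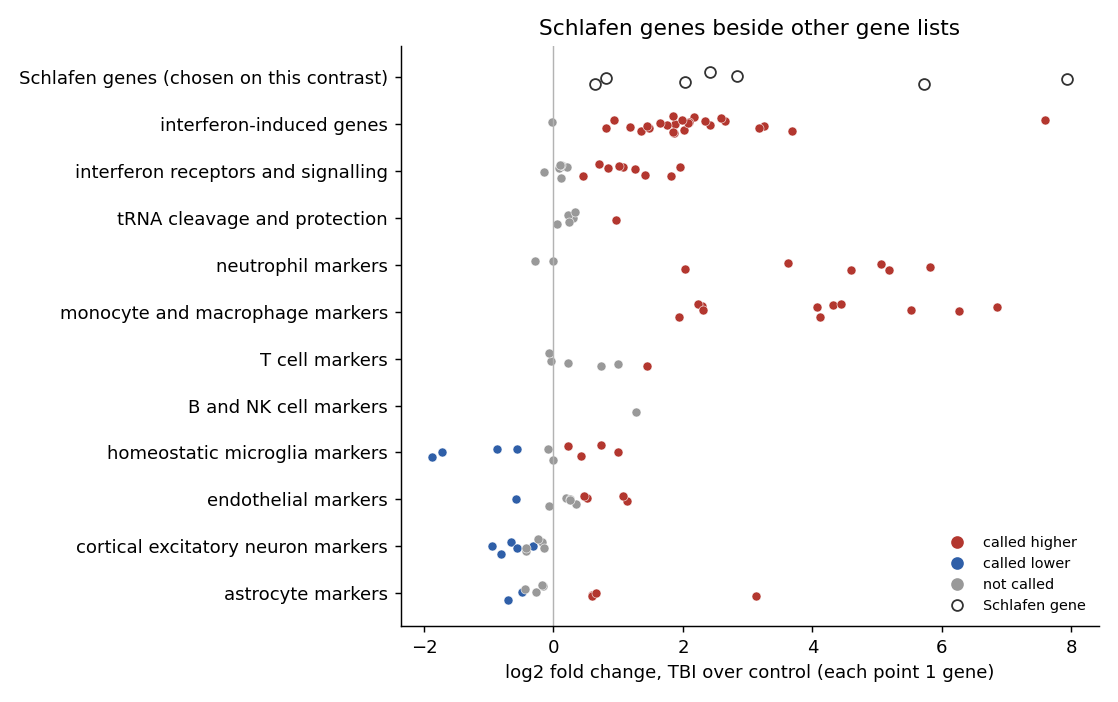
Log2 fold change, TBI over control, of each Schlafen gene (open circles) and of each tested gene of 11 lists, red where called higher, blue where called lower and grey where not called. Slfn4 at 7.93 lies beyond every listed gene, and Slfn5 and Slfn3, at 0.64 and 0.81, lie below most interferon-induced genes.

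Rows around the Schlafen genes were also read. Of 21 other RefSeq-named rows within 250 kb of the cluster, 18 were tested, of which 3 were higher, 1 lower and 14 not called, beside 15.4% higher and 10.7% lower of all RefSeq-named rows, with a median log2 fold change of 0.14. Leaving out control replicate 2 or TBI replicate 1 brought the lower rows to 2. Slfn10-ps, a Schlafen pseudogene between Slfn8 and Slfn2, had 160, 136 and 166 counts in TBI and 27, 13 and 25 in control (log2 fold change 2.82, SE 0.27, edgeR adjusted p = 2.16e-05). AI662270, a row of no assigned function beyond Slfn3 (83223576 to 83226584), had 100, 90 and 122 counts in TBI and 24, 18 and 16 in control (log2 fold change 2.41, SE 0.28, edgeR adjusted p = 9.91e-05). Of the Slfn10-ps transcript, 19.7% of 50-base windows occur in another Schlafen transcript. Outside the cluster, Rffl was higher by 0.39 (edgeR adjusted p = 0.0222), a call lost without control replicate 2, control replicate 3, TBI replicate 1 or TBI replicate 3. Rasl10b was lower, at 21.9 ± 1.9 RPKM in TBI and 31.7 ± 4.71 RPKM in control (edgeR adjusted p = 0.000986).

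Other relatives had few counts. Slfn14, known for its part in red cells and platelets, had 0, 0 and 2 counts in TBI and 3, 2 and 8 counts in control and did not pass the filter. With counts pooled over the libraries of each group, its depth-scaled ratio, TBI over control, was 0.163 (95% exact counting interval 0.0179 to 0.722). That interval leaves out the spread between libraries, and control replicate 3 held 8 of the 13 control counts. No difference between groups is read from it. Slfnl1, a Schlafen-like gene on chromosome 4 (120531979 to 120536661), had 8 to 11 counts in TBI and 3 to 14 in control (edgeR adjusted p = 0.986).

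**Figure D5:**
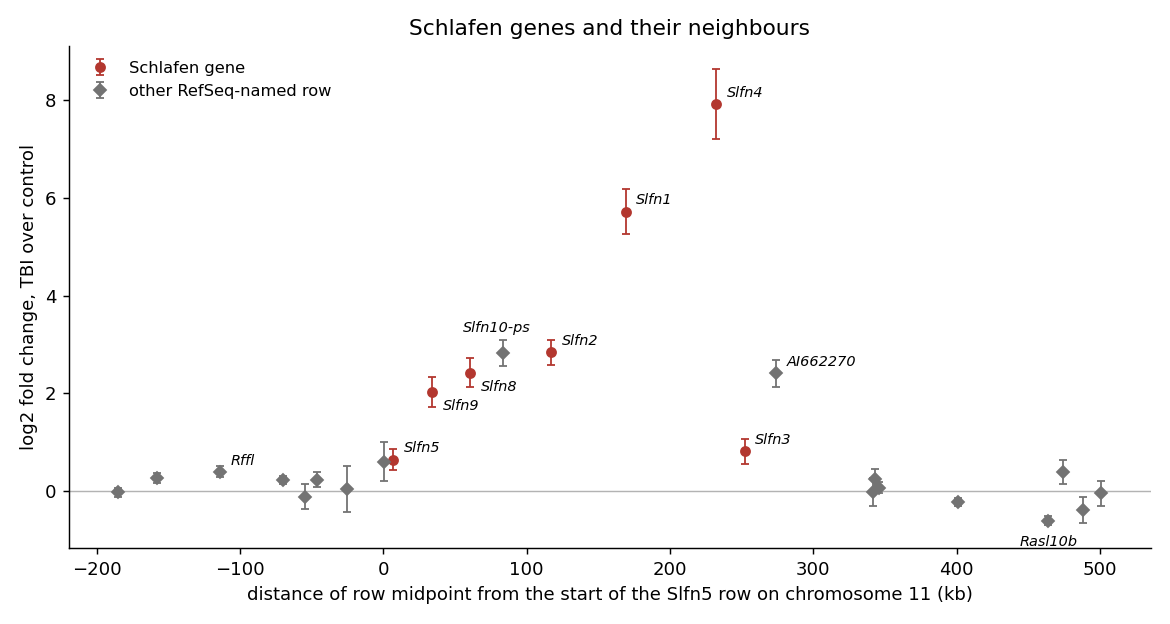
Log2 fold change (TBI over control, bars show the SE) of every tested RefSeq-named row against the distance of its midpoint from the start of the Slfn5 row, in kb. The Schlafen genes climb from 0.64 at Slfn5 to 7.93 at Slfn4, drop to 0.81 at Slfn3, and rows on either side lie between -0.61 and 0.59, apart from AI662270 at 2.41 just beyond Slfn3.

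Genes whose profile over the 6 libraries was nearest to a member were looked up among 16909 named genes, by the distance between centred log2(RPKM + 0.1) profiles, as a description. Nearest to Slfn8 was Tnfrsf1b, a receptor for tumour necrosis factor, at a distance of 0.145. It had 2.28, 1.29 and 3.48 RPKM in TBI replicates 1, 2 and 3, against 0.448, 0.434 and 0.410 RPKM in control, close to Slfn8 in each. Trim30a and Cyp4f18 came next. Slfn9 was nearest to Pstpip1, Csf3r and Oas1b (distances 0.340 to 0.367). Slfn2 was nearest to Mir147, Ifitm3 and Fgr (0.309 to 0.342), and Slfn1 to Ccr2, F630028O10Rik and Ms4a6d (0.343 to 0.445). By this distance the nearest to Slfn4 were the chemokine genes Ccl4, Cxcl3 and Ccl7, at 0.917 to 1.08, farther than for the other members. By Pearson correlation they were A630001G21Rik, Pira7 and Pira4 (r = 0.999 over the 6 libraries). Ccl4 had 5.92, 3.97 and 12.2 RPKM in TBI replicates 1, 2 and 3, a narrower spread than that of Slfn4. Slfn3 was nearest to Vamp5, Kmo and Bcl2l11 (0.164 to 0.206), and Slfn5 to Pik3r6, Sp100 and Agmat (0.221 to 0.234). These names depend on the measure, as only 5 of the 21 were also named with a pseudocount of 1. The added 0.1 narrows the profile of a gene whose control levels lie below it. Fgr had a log2 fold change of 5.01, against 2.84 for Slfn2, and 0.0143 to 0.0222 RPKM in control. Kmo had a log2 fold change of 1.81, against 0.81 for Slfn3, and 0.0162 to 0.062 RPKM in control.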

How the data were processed

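Libraries were made from fragmented total RNA through double-stranded cDNA, with deoxy-UTP labelling and PCR, per the labels' protocols. The submitters' processing notes name TopHat2 and mm10. How reads were counted, with which strand setting and which annotation, is not given in the sources used here. For 56826 gene rows and 64529 transcript rows, each library has a count column and an RPKM column, both made by the authors, per the file headers. Implied row lengths agreed between libraries to a relative 9.54e-06, so RPKM is the count scaled by row length and column total. Of counts from 1 to 20, 54.2% were even, so mates may be counted separately, and intervals cover counting error only.

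Counts were tested with the quasi-likelihood test of edgeR 4.0.16 in R 4.3.3 (filterByExpr with minimum count 10 and minimum total 15, TMM, no block, Benjamini-Hochberg over all 42762 rows tested, calls at an adjusted p under 0.05). The SE is the log2 fold change divided by the root of the F statistic. Alternatives were DESeq2 1.42.0, limma-voom (limma 3.58.1), other scaling and filters, a replicate block and each library left out. The tests were tried on simulated data. Members and lists were chosen with earlier results of these data known. Named genes were all Schlafen rows, up to 3 called genes each way per list with a mean of at least 1 RPKM in the higher group, every gene of lists of up to 6, called neighbours (up to 3 by smallest adjusted p) and the 3 nearest profiles per member. Others (Cmpk2, Ifnar1, Ifnar2, lymphocyte and interferon genes, Ltf, Ngp, 1700003F17Rik and Rffl) were added after their values were seen. Values of some listed genes are not reported here. RefSeq promoters (GRCm38.p6) and GENCODE M21 transcripts share the build mm10, and sequences were aligned with Biopython 1.88.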

Additional observations from a re-analysis of the deposited data

How the results depend on the processing

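Of 339 counts and shares recomputed under an alternative, 324 stayed within 1.5 times the reported value or its replicate spread, and of 816 comparisons of single genes 788 kept their direction and call or, for the Schlafen genes, stayed within the replicate spread, although Slfn3 and Slfn5 each became called in 3 of them. Gene rows called lower numbered 2367 without the FANTOM3 cDNA clone rows, against 3576, and 2378 (without control replicate 3) to 4064 with 1 library left out. With 1 library left out, T cell markers called higher numbered 1 to 2, neuron markers called lower 3 to 7, astrocyte markers called lower 2 to 4 and neighbours called lower 1 to 2. The neighbours called lower numbered 2 with limma-voom and 2 without FANTOM3 rows. The log2 fold change of Elac2, 0.05 as reported, was -0.01 without TBI replicate 1 and -0.01 to 0.07 with 1 library left out. Of the 21 nearest profiles, 5 were shared with a pseudocount of 1 and 3 with Pearson correlation. The shorter Slfn8 transcript row made up, on average in TBI, 51.8% of both transcript rows by RPKM and 45.2% by counts. These shares have another base than the 82.3 to 83.6% of the gene count given above. The causes were not tested.

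Replicate numbers were not used to pair the samples, as the labels do not say whether equal numbers share an animal or batch. Deviations of same-numbered libraries correlated at 0.0487 to 0.0546, each the best match for its library. Libraries with different numbers correlated at -0.0352 to -0.0135. This is a hint from the data and not the design, and whether the samples are paired is not known here. With the replicate block 4249 gene rows were called higher and 4010 lower, T cell markers called higher numbered 2, neuron markers called lower 8, and all 7 Schlafen genes were past the call rule, which is a description. Depth limits Slfn1 and Slfn4 in control (12 and 24 counts in all) and Slfn14 in every library.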
